A study of Mus musculus with 2 samples.

Results

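Levels of 10 genes for small leucine-rich proteoglycans (Dcn, Bgn, Lum, Fmod, Kera, Prelp, Omd, Ogn, Chad and Podn) were read out of the 32287 features of a single-cell library from denervated hind limb muscle. The genes were named as a list, and none of them served to gate a class of cells. The cells came from tibialis anterior and gastrocnemius muscle of male mice, 2 months old, with the S100GFPtg genotype, taken 7 days after sciatic nerve crush. In these mice the S100B promoter drives green fluorescent protein (GFP), and live GFP+ cells were sorted and their RNA was read from the 3' end in 1 droplet library. The series text speaks of 1 injured mouse and the methods of pooled animals, so the number of animals is not certain. No uninjured library and no counts of the GFP- fraction were analysed here, and 372 barcode sequences (1.02% of those in the GFP+ library) were also listed for the GFP- library. With 1 library there is no replicate, no test and no p-value, and each interval given is a 95% interval for counting error only.

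Small leucine-rich proteoglycans are secreted proteins whose curved core of leucine-rich repeats binds fibrillar collagen and sets how fibrils grow in width and pack together. Many carry chains of chondroitin, dermatan or keratan sulfate, and some also bind growth factors or innate immune receptors. In limb muscle they are known as products of the connective tissue fibroblasts around fibres and of the tenocytes that build tendon and its junction with muscle.

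A unique molecular identifier (UMI) stands for 1 captured RNA molecule, and a level is given as CPM, the UMIs of a gene for each 1000000 UMIs of a class. A 3' tag count does not scale with the length of the transcript, but how well the RNA of each gene was captured was not measured, so that levels and shares of different genes set side by side are those of captured UMIs. Of 36400 barcodes, 19553 held at least 2000 UMIs, and 18528 of these passed the filters. Classes were gated from marker UMIs, which gave 1797 fibroblast-like, 604 tenocyte-like, 6923 monocyte/macrophage-like and 74 Schwann-like barcodes, beside 6 classes of 23 to 256 barcodes. Of the markers used to gate each class, which are therefore no check of its name, all 8 were highest in the tenocyte-like class, 7 of 8 in the fibroblast-like class and 6 of 7 in the satellite cell and myoblast-like class. In all the library held 170648616 UMIs. Another 8489 barcodes (45.8%) met no gate or several, and 3631 barcodes held fibroblast and macrophage markers together above both gates. The unassigned barcodes held between 18.4% of the Kera UMIs and 53.5% of the Podn UMIs of all barcodes kept.

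The family lay on 6 chromosomes in the GRCm38.p6 RefSeq annotation, and 3 runs of neighbouring genes held most of it. Dcn (chr10:97479500-97518163), Lum (chr10:97565501-97572703) and Kera (chr10:97606962-97613688) followed each other with no other protein-coding gene between them, at gaps of 47.3 and 34.3 kb. Omd (chr13:49582462-49592612) and Ogn (chr13:49608015-49624501) lay 15.4 kb apart. Prelp (chr1:133910304-133930102, minus strand) and Fmod (chr1:134037254-134048280, plus strand) lay 107 kb apart. Bgn (chrX:73483601-73495936), Podn (chr4:108014793-108031954) and Chad (chr11:94565047-94569127) had no member beside them. Of the chromosome 10 genes, Kera was higher and Lum lower in tenocyte-like than in fibroblast-like barcodes, as given with their values further on.

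Upstream sequences are shown, chosen with the matches known, for 3 of the 5 genes that were at least 2-fold higher in tenocyte-like than in fibroblast-like barcodes (Chad, Fmod and Omd) and for Podn, which was lower; those of Prelp and Kera, which lie inside the annotated genes and held neither motif, are not printed. They are the 100 bases before the RefSeq start, in GRCm38.p6, printed from 5′ to 3′ on the strand of the gene. Capitals mark TATAAA (the TATA box) or CATCTG (a form of the E box bound by basic helix-loop-helix factors), both searched on both strands, so that CAGATG is CATCTG on the other strand. Chad lies at chr11:94564947-94565046 (plus strand), Fmod at chr1:134037154-134037253 (plus strand), Omd at chr13:49582362-49582461 (plus strand) and Podn at chr4:108031955-108032054 (minus strand).
Chad: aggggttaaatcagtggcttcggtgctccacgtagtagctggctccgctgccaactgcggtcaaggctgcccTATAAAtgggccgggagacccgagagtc
Fmod: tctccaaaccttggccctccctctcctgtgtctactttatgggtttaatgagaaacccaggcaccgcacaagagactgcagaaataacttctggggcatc
Omd: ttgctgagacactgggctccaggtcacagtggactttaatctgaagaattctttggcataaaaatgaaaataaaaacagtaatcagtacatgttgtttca
Podn: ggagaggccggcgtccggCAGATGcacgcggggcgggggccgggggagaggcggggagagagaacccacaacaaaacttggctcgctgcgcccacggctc
Chad held TATAAA 28 bases before its start, and Podn held CAGATG 82 bases before its start. Among 32841 promoters of the same length, 5.56% held TATAAA and 5.62% held CATCTG. Of 9 promoters of 8 members, 1 held TATAAA and 1 held CATCTG, and a match says only that these letters are present.

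Together the 10 genes made up 3.22% of all UMIs in tenocyte-like barcodes and 1.32% in fibroblast-like barcodes, against 0.0116% in monocyte/macrophage-like ones. Dcn, for decorin, the family's most widespread collagen-binding member, gave 74.9% of the family's UMIs in fibroblast-like and 57.0% in tenocyte-like barcodes. The next share was that of Bgn, with 7.96%, in fibroblast-like barcodes, but that of Fmod, with 22.6%, in tenocyte-like ones. Of the UMIs that fell in a class, fibroblast-like and tenocyte-like barcodes together held between 94.1% (Bgn) and 99.2% (Chad).

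**Figure D1:**
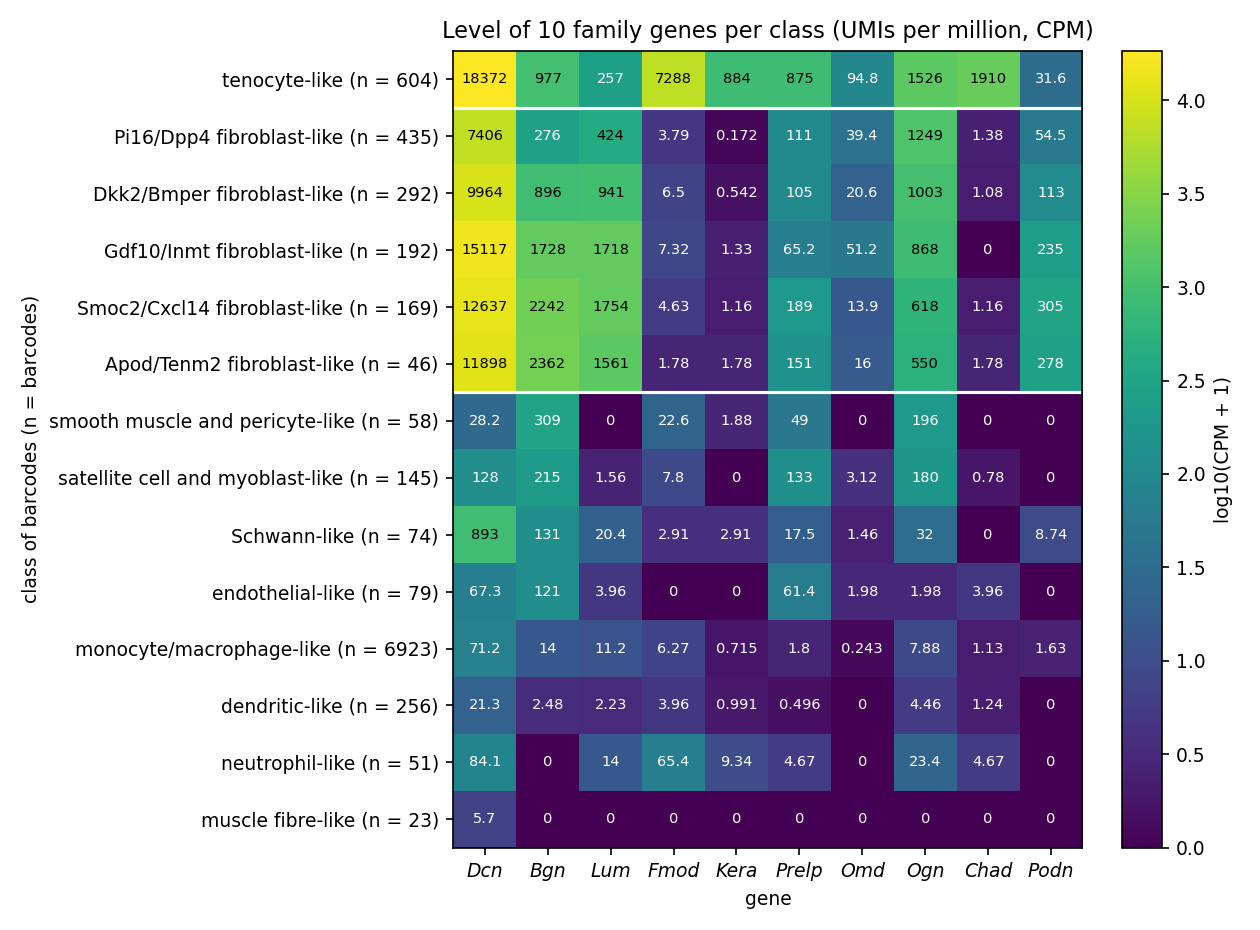
Level of each member (columns) in each class or fibroblast gate (rows), printed in CPM in the cells and coloured by log10(CPM + 1), with the number of barcodes in brackets. Fmod, Kera and Chad are highest in the tenocyte-like row, at 7288, 884 and 1910.05 CPM, while Dcn is at 7406 CPM or more in every stromal row.

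The first comparison asked how the family differs between the tenocyte-like and the fibroblast-like class. At least 2-fold higher in the tenocyte-like class were 5 of 10 members (Fmod, Kera, Chad, Prelp and Omd), and 2 were at least 2-fold lower (Lum and Podn). Among 12819 genes with at least 50 UMIs over the 2 classes, 8.49% were higher and 12% were lower by that measure. The median log2 ratio was 1.31 over the members and 0.01 over all genes compared. The 3 members within 2-fold were Dcn, Bgn and Ogn.

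Fmod, Kera and Chad differed most, with few UMIs in fibroblast-like barcodes. The fibroblast-like gate left out barcodes with 4 or more tenocyte marker UMIs for each 10000, so these low levels and the size of the ratios were in part set by the gate. Stromal barcodes with 4 to 16 such UMIs (453) held Fmod at 82.7, Chad at 20.8 and Kera at 10.4 CPM. Fmod encodes fibromodulin, a keratan sulfate proteoglycan that governs collagen cross-linking and fibril growth in tendon, and its level was 7288 CPM (7218 to 7358) in tenocyte-like and 6.98 CPM in fibroblast-like barcodes, a ratio of 1045 (879 to 1251). Chad encodes chondroadherin, a member without glycosaminoglycan chains that binds collagen and integrin and is best known from cartilage, and it stood at 1910.05 and 1.02 CPM, a ratio of 1873 (1199 to 3112). Kera encodes keratocan, best known from the cornea, and it stood at 884 and 0.751 CPM, from 5039 and 14 UMIs.

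The size of these ratios rested on few UMIs in the fibroblast-like class, where over all depths the intervals of the 3 genes overlapped those of monocyte/macrophage-like barcodes. The latter held Fmod at 6.27 CPM (5.68 to 6.90), Kera at 0.715 CPM and Chad at 1.13 CPM, beside fibroblast-like levels of 6.98 (5.83 to 8.28), 0.751 and 1.02 CPM. In barcodes with fewer than 5000 UMIs the Fmod ratio was 196 (147 to 267), with levels of 4079 and 20.9 CPM, and in deeper ones it was 1517 (1223 to 1905), with levels of 7688 and 5.07 CPM. The Chad ratio was 265 (128 to 661) and 2792 in the same ranges, and the Kera ratio 168 and 1921. Monocyte/macrophage-like barcodes held Fmod at 33.6 CPM (29.2 to 38.4) in the first range and at 3.37 CPM (2.92 to 3.87) in the second, above the fibroblast-like level of 20.9 CPM (15.3 to 27.7) and below that of 5.07 CPM (4.04 to 6.28).

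Shares of barcodes with a UMI were also far higher in the tenocyte-like class for all 3 genes. After each barcode was thinned to 1000 UMIs, Fmod was found in 87.9% (85.0 to 90.4) of tenocyte-like, 1.61% (1.08 to 2.31) of fibroblast-like and 1.18% (0.943 to 1.47) of monocyte/macrophage-like barcodes, a class that should lack these genes. Without thinning it was in 97% of the first, 5.29% of the second and 4.30% of the third, whose median depths were 7936.5, 7802 and 9029 UMIs. Chad was found in 54.3% of tenocyte-like, 0.278% of fibroblast-like and 0.116% of monocyte/macrophage-like barcodes after thinning, and in 73.0%, 0.946% and 0.968% before. Kera was found in 37.3%, 0.0556% and 0.116% after thinning and in 64.6%, 0.668% and 0.664% before. The fibroblast-like and macrophage-like intervals overlapped for all 3 genes after thinning, with 1 fibroblast-like barcode holding Kera, so no fibroblast-like share was told apart from the macrophage-like one.

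Prelp and Omd were higher in the tenocyte-like class by smaller ratios, from a clear fibroblast-like level. Prelp, whose product anchors basement membranes to underlying collagen, was at 875 CPM (tenocyte-like) and 114 CPM (fibroblast-like), a ratio of 7.66 (7.28 to 8.06). Omd, for osteomodulin, a keratan sulfate proteoglycan first studied in bone, was the scarcest of the 5, at 94.8 and 28.7 CPM, a ratio of 3.31 (2.93 to 3.73).

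Lum and Podn ran the other way. Lum encodes lumican, which spaces collagen fibrils in cornea and skin, and its level was 257 CPM (244 to 271) in tenocyte-like and 990.2 CPM in fibroblast-like barcodes, 3.85-fold lower. Podn encodes podocan, a member known from kidney and vascular smooth muscle, and its level was 31.6 CPM in tenocyte-like and 138 CPM in fibroblast-like barcodes, 4.35-fold lower. In barcodes with fewer than 5000 UMIs the Podn ratio was 0.585 (0.422 to 0.796), short of 2-fold, and in deeper ones it was 0.188, while the Lum ratios were 0.428 and 0.240. With fewer than 5000 UMIs 5 members were thus higher and 1 lower, where 3.93% and 6.29% of genes were, and with 5000 or more 5 were higher and 2 lower, where 9.02% and 12.9% were.

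Dcn, Bgn and Ogn were shared by both classes. Dcn stood at 18372 CPM in tenocyte-like and 9846 CPM in fibroblast-like barcodes, a ratio of 1.87 (1.85 to 1.88). It passed 2-fold, at a log2 ratio of 1.38, when only barcodes almost free of markers of other classes were used. Ogn, for osteoglycin (mimecan), was at 1526 and 978 CPM, a ratio of 1.56 (1.52 to 1.60). Bgn, for biglycan, decorin's closest relative and a ligand of toll-like receptors when released, was at 977 and 1046 CPM, a ratio of 0.934 (0.906 to 0.962). The 453 stromal barcodes with 4 to 16 tenocyte marker UMIs for each 10000, left out of both classes, held Bgn at 2389 CPM. They held Lum at 1622 CPM and Podn at 275 CPM, also above the fibroblast-like levels. The ratios of Bgn, Lum and Podn were thus in part set by the gate as well.

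**Figure D2:**
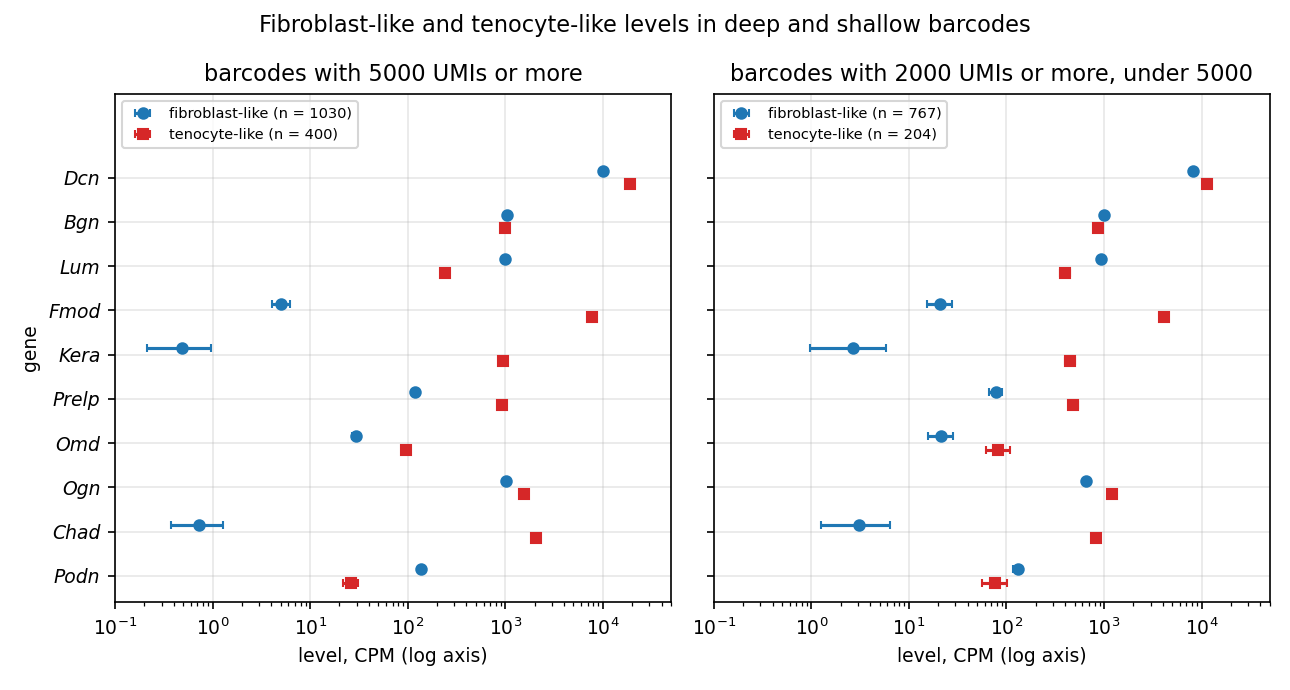
Level (CPM, log axis) of each member in fibroblast-like (circles) and tenocyte-like (squares) barcodes, with 95% counting intervals, in barcodes with 5000 UMIs or more (left) and fewer than 5000 (right). The gap for Fmod, Kera and Chad is wider on the left, where their fibroblast-like levels are 5.07, 0.488 and 0.733 CPM.

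The spread among barcodes of 1 class was wide for most members. Over 400 tenocyte-like barcodes with at least 5000 UMIs, Fmod ran from 921 CPM at the 10th percentile over a median of 7742 CPM to 14766 CPM at the 90th. Dcn ran from 4891 over 16326 to 36299 CPM in the same barcodes. Chad, Kera and Prelp were at 0 at the 10th percentile, with medians of 1484, 522 and 624 CPM. Lum was at 0 in the median tenocyte-like barcode, and the 10% of barcodes with most Lum held 73.8% of its UMIs there, against 34.3% in the fibroblast-like class. In the fibroblast-like class Dcn was the most even, with 21.3% of its UMIs in the top 10% of 1030 barcodes, and in the tenocyte-like class Fmod (25.8%), Ogn (27.4%) and Dcn (27.8%) were.

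The members were also followed along the tenocyte marker rate, the UMIs of the 8 tenocyte markers for each 10000 UMIs, over stromal barcodes with at least 5000 UMIs. At 2000 UMIs or more the levels of Fmod, Chad and Kera at rates of 4 to 16 were higher, as given above, than the 23.1, 5.31 and 1.90 CPM in these deeper ones. Fmod was at 4.09 CPM where the rate was 0 (743 barcodes), at 23.1 CPM at rates of 4 to 16, at 939.7 CPM at 16 to 64 (109 barcodes), and at 6502 CPM at 64 to 128. Chad and Kera climbed over the same steps, from 5.31 to 191 to 1749 CPM and from 1.90 to 154 to 867 CPM. At 256 or more (24 barcodes) Fmod reached 10380.5 CPM, Chad 2965 CPM and Kera 1257 CPM. Prelp was at 630 CPM at 64 to 128, 1133 CPM at 128 to 256 and 2048 CPM at 256 or more. Omd stayed between 19.3 and 30.4 CPM below a rate of 64 and between 80.9 and 105 CPM above it.

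Bgn, Lum and Podn were highest in the middle of this range. Bgn was at 728 CPM at a rate of 0, 2695 CPM at 4 to 16, 3001 CPM at 16 to 64 and 998 CPM at 64 to 128. Podn followed with 111, 304, 304 and 63.5 CPM, and Lum with 829.99, 1822, 1356 and 238 CPM. At 128 to 256 and at 256 or more, Bgn was at 1094 and 1739 CPM, Lum at 239 and 588 CPM and Podn at 29.4 and 28.0 CPM. Summed over the barcodes at rates of 16 to 64, Bgn, Lum and Podn were thus above their fibroblast-like levels. Fmod, Chad and Kera lay between the levels of both classes in the same sum. Such sums do not show that the same barcodes held both sets of genes. This bin held 548 Podn UMIs, against 132 in all tenocyte-like barcodes with at least 5000 UMIs, so most of its Podn lay outside that class. Whether single barcodes held both sets, and whether any were droplets that caught 2 cells, was not tested.

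**Figure D3:**
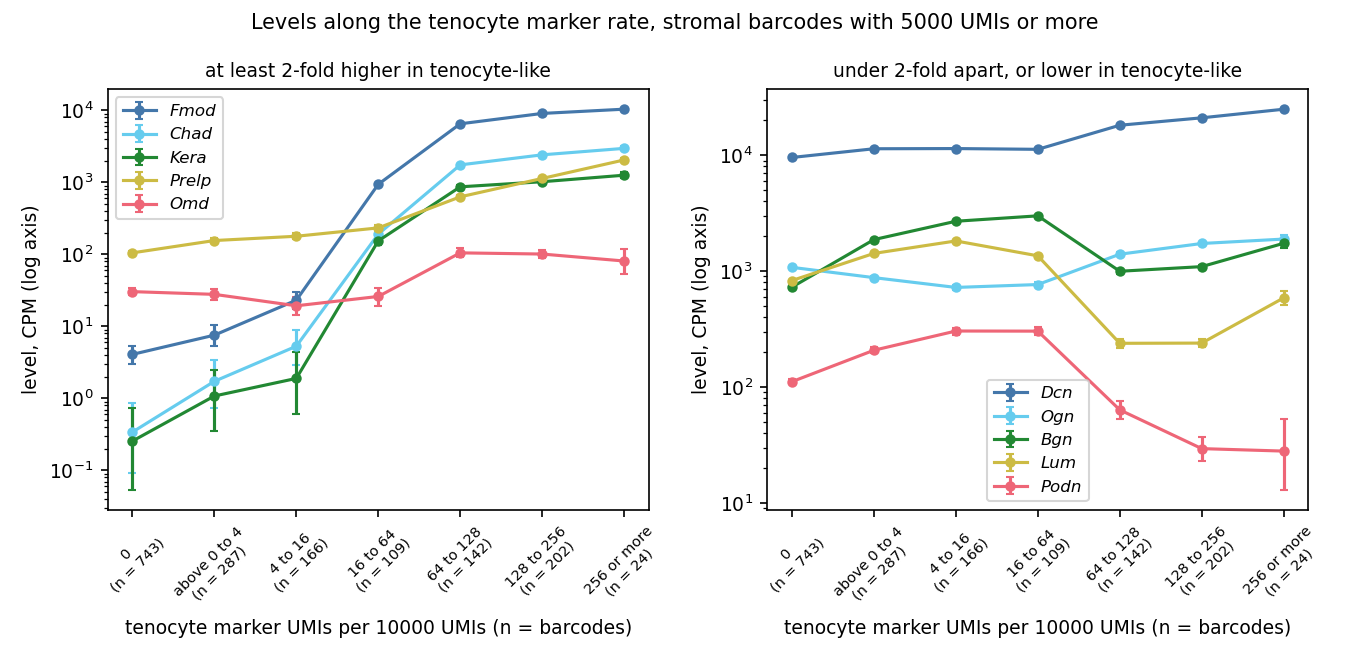
Level (CPM, log axis, with 95% counting intervals) along bins of the tenocyte marker rate in stromal barcodes with at least 5000 UMIs, for the 5 members higher in the tenocyte-like class (left) and the other 5 (right). Fmod, Chad and Kera climb between the bins 4 to 16 and 64 to 128, and Bgn, Lum and Podn peak at 4 to 64.

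The second comparison asked how the family differs within the fibroblast-like class. Gates named by their genes held 1134 of the 1797 barcodes, namely Pi16/Dpp4 (435 barcodes), Dkk2/Bmper (292), Gdf10/Inmt (192), Smoc2/Cxcl14 (169) and Apod/Tenm2 (46). The gate genes came from clusters described earlier for these same cells, so the levels are a description. Each gate was set against the other 4 together, and 8 members had the 50 UMIs needed; Kera and Chad, with 8 and 15 UMIs over all gates, did not. At least 2-fold away in 1 gate or more were 5 members, Bgn, Lum, Podn, Omd and Fmod, the last on 1 UMI in the Apod/Tenm2 gate (ratio 0.349, 0.00870 to 2.01). Of 11157 genes, 28.6% were 2-fold away in 1 gate or more.

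The Pi16/Dpp4 gate had the lowest levels of Bgn, Lum, Podn and Dcn. Bgn was at 276 CPM against 1484 CPM in the other gates, 5.38-fold lower, Podn at 54.5 against 194 CPM, 3.56-fold lower, and Lum at 424 against 1331 CPM, 3.14-fold lower. These 3 of 8 members compare with 6.93% of 11157 genes that were at least 2-fold lower in this gate. Dcn, at 7406 CPM, was 1.59-fold lower. No member was at least 2-fold higher, as 4.69% of genes were, but Ogn was at its highest fibroblast level there, 1249 CPM against 853 CPM, a ratio of 1.46 (1.42 to 1.52).

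The Smoc2/Cxcl14 and Apod/Tenm2 gates had the highest levels of Bgn and Podn. In the Smoc2/Cxcl14 gate Bgn was at 2242 CPM (ratio 2.94, 2.83 to 3.05), Podn at 305 CPM (2.83, 2.55 to 3.14) and Lum at 1754 CPM (2.16, 2.07 to 2.25), 3 members higher where 3.59% of genes were. Omd was lower there, at 13.9 CPM from 24 UMIs against 33.8 CPM (ratio 0.411, 0.260 to 0.621), 1 member where 5.76% of genes were lower. With equal weight per barcode Lum and Omd fell short of 2-fold here, at log2 ratios of 0.91 and -0.99, and Omd did so at -0.78 when a gate score had only to equal the next. In the Apod/Tenm2 gate Bgn was at 2362 CPM (ratio 2.64) and Podn at 278 CPM (2.19), 2 members higher where 5.81% of genes were, and 1 member, Fmod as above, lower where 9.55% were. Podn fell short with equal weight per barcode, at a log2 ratio of 0.91, and Fmod was then at -0.10. Ogn was at its lowest fibroblast levels in these gates, 618 and 550 CPM. The Pi16/Dpp4 gate, low in Bgn, Lum and Podn, was part of what these gates were set against. Against the other 3 gates without it, no ratio of Bgn, Lum or Podn here reached 2-fold. In the Smoc2/Cxcl14 gate the ratios were then 1.79 for Bgn (1.72 to 1.86), 1.89 for Podn (1.70 to 2.11) and 1.46 for Lum (1.40 to 1.52), and Omd was at 0.494 (0.307 to 0.761). In the Apod/Tenm2 gate they were 1.67 for Bgn and 1.48 for Podn.

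The Gdf10/Inmt gate had the highest fibroblast level of Dcn, 15117 CPM (ratio 1.65, 1.62 to 1.67). Lum, at 1718 CPM (ratio 2.06, 1.97 to 2.15), and Bgn, at 1728 CPM (2.02, 1.93 to 2.10), were just past 2-fold, 2 members where 3.40% of genes were higher, and none was lower where 8.33% of genes were. With 5000 UMIs or more they fell just short, at log2 ratios of 0.98 for both, and without the Pi16/Dpp4 gate the ratios were 1.39 for Lum and 1.21 for Bgn. Prelp was at its lowest fibroblast level here, 65.2 CPM, and Omd at its highest, 51.2 CPM. In the Dkk2/Bmper gate no member was 2-fold away in either direction, where 1.99% of genes were higher and 3.90% lower, and the ratios of Dcn, Lum and Ogn were 1.02, 1.01 and 0.969. Without the Pi16/Dpp4 gate this gate was the lowest for Bgn and Podn, with ratios of 0.436 and 0.415 to the other 3, while Omd (2.81) and Prelp (0.488) passed 2-fold in the Gdf10/Inmt gate.

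**Figure D4:**
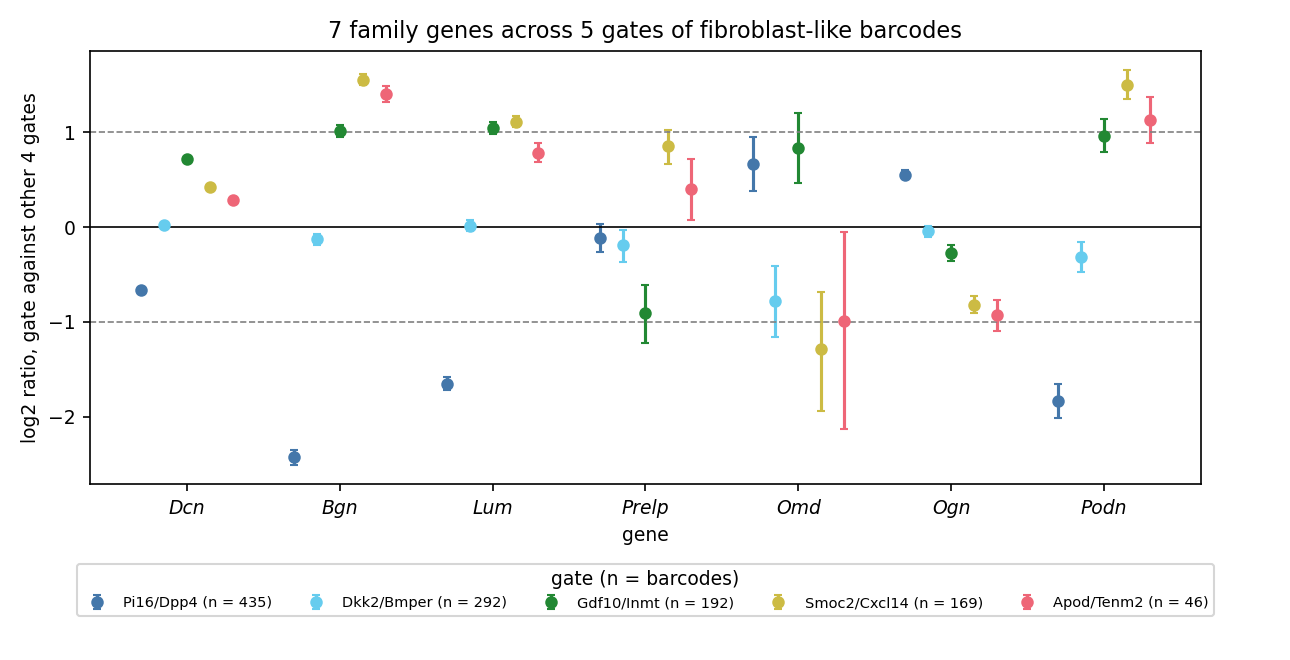
Log2 ratio of each gate's level to that of the other 4 gates together, with 95% counting intervals, for the 7 members with most UMIs over the gates; dashed lines mark 2-fold. Pi16/Dpp4 is the lowest gate for Bgn, Lum, Podn and Dcn and the highest for Ogn.

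The order of the levels over all classes was thus not the same for every member. In 7 of 10 members the tenocyte-like class was highest (Dcn, Fmod, Kera, Prelp, Ogn, Omd and Chad), and its interval was clear of the next class each time. For Lum the Smoc2/Cxcl14 and Gdf10/Inmt gates came first with intervals that overlapped, at 1754 and 1718 CPM. For Podn the Smoc2/Cxcl14, Apod/Tenm2 and Gdf10/Inmt gates followed each other, from 305 to 235 CPM, and each interval overlapped that of the next. The intervals of Smoc2/Cxcl14 (280 to 332) and Gdf10/Inmt (211 to 261) were apart. For Bgn the Apod/Tenm2 and Smoc2/Cxcl14 gates came first and did not differ beyond their intervals.

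Outside the stromal classes the members differed from class to class. In the 58 smooth muscle and pericyte-like barcodes Bgn was at 309 CPM (263 to 360), Ogn at 196 CPM (160 to 237) and Prelp at 49.0 CPM, from 26 UMIs, while Dcn was at 28.2 CPM and Lum had 0 UMIs, for which a bound of 3 counts gives 5.65 CPM. Fmod was at 22.6 CPM (11.7 to 39.5) from 12 UMIs in 8 barcodes, 3.60 times (1.85 to 6.37) its macrophage-like level. The Ogn UMIs lay in 15 barcodes, 3 of which held 52.9% of the 104 UMIs, and without the top barcode the level was 154 CPM, while the Bgn UMIs lay in 33 barcodes. As a share of the fibroblast-like level these were 29.5% for Bgn, 20.0% for Ogn and 42.8% for Prelp, beside 0.287% for Dcn. The order of the genes was turned round: for every 100 Dcn UMIs there were 1093 of Bgn and 693 of Ogn, against 10.6 and 9.93 in fibroblast-like barcodes.

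The 145 satellite cell and myoblast-like barcodes had the same 3 genes. Bgn was at 215 CPM (190 to 242), Ogn at 180 CPM (157 to 204) and Prelp at 133 CPM (113 to 154), the last at 116% of its fibroblast-like level, beside 128 CPM of Dcn, 1.30% of its own. Thinned to 1000 UMIs, Ogn was found in 17.9% (12.1 to 25.2) of these barcodes and in 1.68% of macrophage-like ones, and Bgn in 14.5% and 2.87%. Unthinned, Prelp, Ogn and Bgn were in 60.0%, 60.0% and 53.1% of them, at a median depth of 8142 UMIs, against 1.52%, 5.13% and 8.64% of macrophage-like ones.

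Endothelial-like barcodes (79) held Bgn at 121 CPM (92.4 to 155) and Prelp at 61.4 CPM (41.7 to 87.1), with Ogn at 1.98 CPM from 1 UMI. The Prelp signal lay in 7 barcodes, 3 of which held 71.0% of its 31 UMIs. Schwann-like barcodes (74) showed Dcn at 893 CPM and Bgn at 131 CPM, but in few barcodes: Dcn was found in 15, and 3 of these held 76.5% of its 613 UMIs, and Bgn in 11, of which 3 held 75.6% of its 90 UMIs. Without the top barcode of each Dcn was at 676 CPM and Bgn at 87.0 CPM. For every 100 Dcn UMIs this class held 14.7 of Bgn, 3.59 of Ogn and 2.28 of Lum, against 10.6, 9.93 and 10.1 in fibroblast-like barcodes. Whether the few barcodes with Dcn also held a fibroblast was not tested.

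Barcodes of these classes had been gated for low fibroblast markers, so their low summed level of 5 core fibroblast markers was set by the gate. It was 0.578% of the fibroblast-like level in the smooth muscle and pericyte-like class, 0.478% in endothelial-like, 4.30% in satellite cell and myoblast-like and 1.34% in Schwann-like barcodes. The part of RNA from other cells in the levels of Bgn, Ogn and Prelp was not tested beyond these values.

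**Figure D5:**
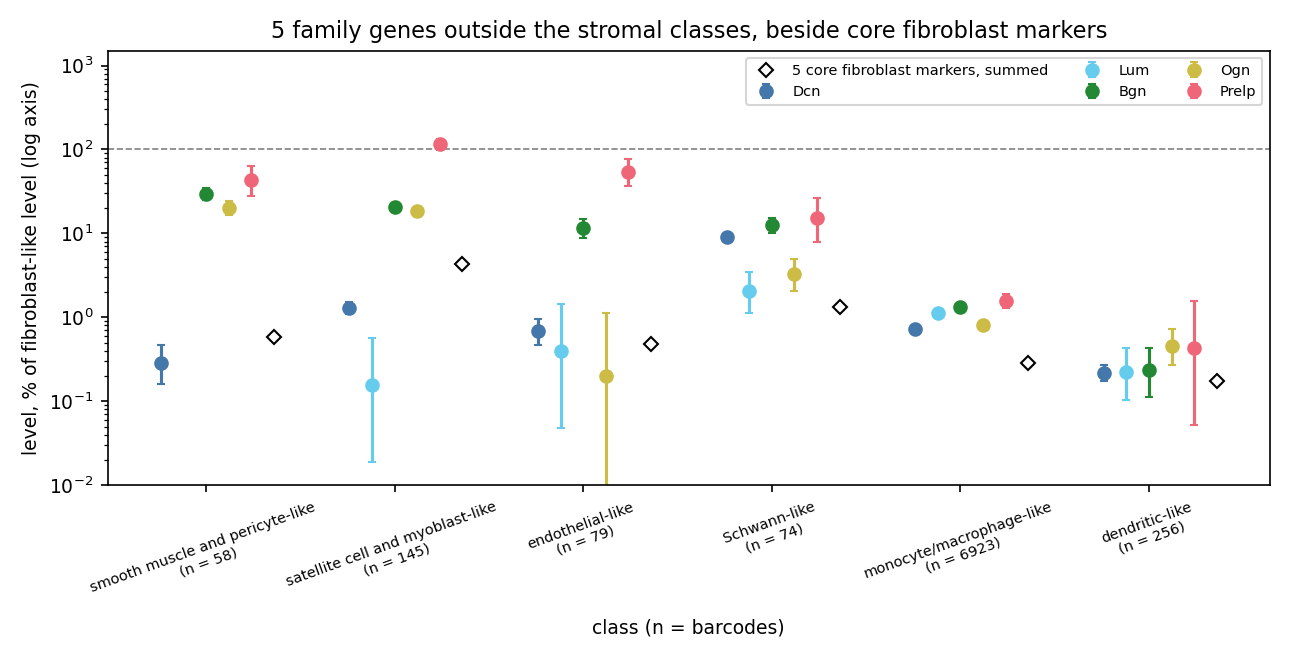
Level of 5 members in 6 classes outside the stroma as a percentage of the fibroblast-like level (log axis, dashed line at 100%), with 95% counting intervals; diamonds give the 5 core fibroblast markers together, and genes with 0 UMIs are left out. Bgn and Prelp lie far above Dcn in the endothelial-like, the smooth muscle and pericyte-like and the satellite cell and myoblast-like class, and close to it in dendritic-like ones.

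Monocyte/macrophage-like barcodes, the largest class, showed each member at a low level that depended on depth. Dcn was at 71.2 CPM over all 6923 barcodes, at 513 CPM in those with fewer than 5000 UMIs and at 24.3 CPM in deeper ones. Bgn was at 88.4 and 6.04 CPM and Lum at 79.7 and 3.94 CPM in the same ranges. For every 100 Dcn UMIs there were 19.6 of Bgn, 15.7 of Lum, 11.1 of Ogn and 8.80 of Fmod and 1.58 of Chad. In fibroblast-like barcodes the same counts were 10.6 of Bgn, 10.1 of Lum, 9.93 of Ogn, 0.0709 of Fmod and 0.0104 of Chad. In tenocyte-like barcodes they were 5.32 of Bgn, 1.40 of Lum, 8.31 of Ogn, 39.7 of Fmod and 10.4 of Chad. In 51 neutrophil-like barcodes, with a median of 2981 UMIs, Fmod was at 65.4 CPM, from 14 UMIs of which 1 barcode held 57.1%.

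Other genes of the family and of its pathway were taken from lists, counted between tenocyte-like and fibroblast-like barcodes and read against the same 8.49% and 12% of all genes. Counts in barcodes with fewer than 5000 UMIs are read against the 3.93% and 6.29% found there. Of 8 further family members 5 could be compared, of which 2 were higher (Ecm2 and Optc) and 1 lower (Tsku); with fewer than 5000 UMIs 2 could be compared and none was 2-fold apart. Aspn, for asporin, which binds collagen and TGF-β, was at 603 and 438 CPM, and Ecm2 was higher, at 320 and 127 CPM (ratio 2.53, 2.38 to 2.69). Aspn lies 14.9 kb from Omd on chromosome 13, and Ecm2 11.7 kb beyond it. Optc, the neighbour of Prelp, was at 9.48 and 2.52 CPM. Aspn was also at 706 CPM in smooth muscle and pericyte-like barcodes and at 677 CPM in the Pi16/Dpp4 gate, against 73.9 CPM in the Gdf10/Inmt gate. Nyx had 7 and 5 UMIs (ratio 4.58, 1.25 to 18.3), under the 50 needed.

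Of 11 collagens that the family binds or lies beside, 3 were higher and 5 lower in tenocyte-like barcodes. Col1a1, at 12505 and 5011 CPM, and Col1a2, at 12209 and 5339 CPM, chains of the main tendon collagen, were higher with ratios of 2.50 and 2.29. Col12a1, a fibril-associated collagen, was 10.6-fold higher, at 816 and 76.6 CPM. Col3a1, the collagen of thin reticular fibrils, was 5.88-fold lower, at 1562 and 9182 CPM, and Col14a1 was 8.74-fold lower, at 80.2 and 701 CPM. The other 3 that were lower were Col5a1, Col5a3 and Col6a3. In barcodes with fewer than 5000 UMIs 2 of the 11 were higher and 2 lower, where 3.93% and 6.29% of all genes were. The median log2 ratio of the 11 was -0.11 there, against -0.93 at 5000 UMIs or more.

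Enzymes that build the family's sugar chains followed by kind. Of 20 genes for chondroitin and dermatan sulfate chains 19 could be compared, none was higher and 1 was lower (Xylt1, which starts the chain, at 48.6 and 116 CPM). Ust, a uronyl sulfotransferase, was at 331 and 484 CPM and Chsy3, a chondroitin synthase, at 141 and 100.6 CPM. Of 7 genes for keratan sulfate chains 6 could be compared, 1 higher (Chst5) and 3 lower (B4galt1, Chst1 and Chst2). Chst5, a sulfotransferase needed for keratan sulfate in the mouse cornea, was at 16.3 and 0.215 CPM from 93 and 4 UMIs, a ratio of 76.0 (28.7 to 285). B4galt1, a galactosyltransferase of broad use, was 4.67-fold lower, at 40.2 and 188 CPM. Chst1 was 9.25-fold lower, from 4 and 121 UMIs, and B3gnt2 was at 44.2 and 70.5 CPM. In barcodes with fewer than 5000 UMIs 1 of 14 chondroitin and dermatan sulfate genes was higher and none lower, where 3.93% and 6.29% of all genes were. Of the 2 keratan sulfate genes that could be compared there 1 was lower.

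Of 8 genes for procollagen processing, which includes the BMP1 family that trims biglycan and osteoglycin, 1 was higher (Adamts3) and 2 were lower (Adamts14 and Bmp1). Adamts3, which cuts the amino propeptide of procollagen, was 13.1-fold higher, at 286 and 21.8 CPM, while Adamts14, of the same group, had 2 and 141 UMIs (ratio 0.0464, 0.00556 to 0.171). Bmp1 itself was 3.20-fold lower, at 76.7 and 245 CPM. Pcolce, the enhancer of procollagen processing, was at 829 and 647 CPM and Pcolce2 at 271 and 422 CPM. With fewer than 5000 UMIs 5 of these genes could be compared, of which 1 was higher and none lower, where 3.93% and 6.29% of all genes were.

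Of 9 receptors for members of the family or for the collagen they bind, 2 were higher (Itga2 and Met) and 1 lower (Tlr4). In barcodes with fewer than 5000 UMIs 1 was higher and none lower, where 3.93% and 6.29% of all genes were. Itga2, the collagen-binding integrin chain that chondroadherin also engages, was 4.45-fold higher, at 80.7 and 18.1 CPM. Egfr, a receptor for decorin, was at 439 and 749.6 CPM and Lrp1, which takes up decorin, at 509 and 668 CPM. Tlr2 and Cd14, receptors for free biglycan, were at 203 and 1333 CPM in monocyte/macrophage-like barcodes, against 17.6 and 59.6 CPM in fibroblast-like ones.

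Across 14 classes and gates of the library, members fell into sets of like pattern, as a description of these sums only. Dcn, Lum and Podn were most alike among themselves, with Pearson's r of 0.94 to 0.97 of log2(CPM + 1) over the 14 points, and so were Fmod, Kera and Chad, with r of 0.85 to 0.93. Bgn was most like Prelp, with r of 0.89. Fmod and Podn had the lowest r, 0.08. Among 10440 other genes, those closest to Dcn were Ctsk, Igfbp6 and Col1a1 (r of 0.98 each), and those closest to Kera and Chad were headed by Wif1 (r of 0.90 and 0.91). Wif1 also headed the list of Fmod (r of 0.81), followed by Col11a2 and Mmp13. Podn and Lum were both closest to Cpxm1 (r of 0.99 and 0.97), Ogn to Col6a1 (0.98), Omd to Tmem45a (0.98), Bgn to Bicc1 (0.98) and Prelp to Tgfbr3 (0.96). All points come from 1 library and share its depth and its RNA from other cells, and the gates share a gating rule.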

How the data were processed

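The authors made the deposited table of raw UMI counts per gene and barcode with Cell Ranger (header, 8.0.1; submitters' notes, 7.1.0); the build is named as mm10 in the labels, and also as GRCm39 in the methods. Barcodes with at least 2000 UMIs, over 200 genes and under 10% mitochondrial UMIs were kept (median 4363.5 UMIs). A class needed a rate of marker UMIs per 10000 (16 for fibroblast-like and tenocyte-like, 32 for monocyte/macrophage-like, 4 to 48 for others), 3 distinct markers and few markers of other classes; classes under 20 barcodes were not described. A fibroblast gate needed 3 UMIs over 2 of its genes and a score 1.5 times the next. Rates were set with the data in view, and members and lists were chosen with earlier results of these data known. Barcodes that passed several gates (32) were left out as possible doublets. As an alternative, the 14.56% of barcodes with the highest Scrublet scores (scanpy 1.11.5) were removed. This share was set beforehand from the number of barcodes and is not a doublet rate found in the data. CPM carry exact Poisson, ratios exact conditional and shares Clopper-Pearson intervals (95%); a count of 0 was bounded at 3 counts. A gene was compared with 50 UMIs over both groups. Values are given for all members and, per list, for the 2 genes with most UMIs in both stromal classes and those 4-fold apart; Col1a1, Optc, Xylt1, Bmp1, Tlr2 and Cd14 were added after their values were seen, as were the names of other genes counted. Like patterns were sought among genes with 500 UMIs. Code (Python 3.11.15, scipy 1.17.1) was tested on simulated data. Sequences and positions are from RefSeq, GRCm38.p6.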

Additional observations from a re-analysis of the deposited data

How the results depend on the processing

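Between tenocyte-like and fibroblast-like barcodes, 7 members were at least 2-fold apart, and 7 or 8 were so under a depth minimum of 5000 or 1000 UMIs, no mitochondrial filter, a stricter gate, barcodes almost free of other markers, equal weight per barcode and removal of the highest Scrublet scores, which took away few of the barcodes compared (1761 fibroblast-like and 599 tenocyte-like were left); at a fold of 1.5 it was 9 and at a fold of 4 it was 5. The 7 members highest in the tenocyte-like class were 7 under each of these alternatives. Within the fibroblast-like class, 5 members were 2-fold away in a gate; this became 8 at a fold of 1.5 and 1 at a fold of 4, by construction, and 4 or 5 otherwise. Of the levels, shares and ratios of single members, 143 moved outside the counting interval of the reported value, 159 stayed within it, and none that was 2-fold apart changed direction. Fmod, Kera and Chad log2 ratios ran from 9.08 to 11.30, 9.25 to 11.96 and 9.65 to 13.42, and Dcn from 0.77 to 1.38; in barcodes under 5000 UMIs alone the first 3 were 7.61, 7.40 and 8.05. Some gate ratios past 2-fold fell short in some alternatives. Their log2 values nearest to 0 were 0.48 for Lum and 0.28 for Bgn in Gdf10/Inmt. In Smoc2/Cxcl14 they were 0.54 for Lum, 0.84 for Bgn, 0.92 for Podn and -0.78 for Omd. In Apod/Tenm2 they were 0.74 for Bgn, 0.57 for Podn and -0.10 for Fmod. Not all of these had been close to 2-fold: Bgn and Podn in Smoc2/Cxcl14 had ratios of 2.94 and 2.83, and Bgn in Apod/Tenm2 had 2.64. The values for Lum, Bgn and Podn are those without the Pi16/Dpp4 gate, which left 4 members 2-fold away in a gate, Prelp, Omd, Bgn and Podn, of which Prelp was not among the 5; the cause of the others was not tested. Gate scores of 1 or 2 times the next, and leaving out the Apod/Tenm2 or the Pi16/Dpp4 gate, were added after the data were seen. No paired analysis was possible because there is 1 library with counts. With 1 library, variation between animals was not measured, and Kera and Chad had too few UMIs to be compared within fibroblast-like barcodes.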
